A study of Mus musculus with 3 samples.

Results

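Amino acid transporters are the membrane proteins that carry amino acids into and out of cells. The genes followed here were 10 such transporters of mouse embryonic stem (ES) cells: Slc7a1, Slc7a3, Slc7a5, Slc7a6, Slc7a7, Slc3a2, Slc1a5, Slc38a1, Slc38a2 and Slc38a4. They are 10 of the 18193 genes that have a probe set of their own on the array, a probe set being a group of short probes for the same transcript. A probe set was taken when the array annotation assigns it to a single one of these genes, which gave 19 probe sets. Of these genes 3 have 1 probe set, 5 have 2 and 2 have 3, and 0 probe sets name a member together with another gene.

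RNA came from mouse ES cells in which Pou5f1, encoding the pluripotency factor Oct3/4, was conditionally knocked out. A single array was hybridised for each of day 0, day 1 and day 2. All 3 groups are labelled as conditional Pou5f1 knockout, and the labels do not describe the allele. The labels name no strain, no agent and no Cre driver, and say nothing of the number of clones. No culture without the knockout was measured at day 1 or day 2, so loss of Oct3/4 and time in culture cannot be told apart. With 1 array per day there are no replicates and no test, and every difference describes these arrays. In such bulk RNA, fewer cells of a type and less RNA per cell cannot be told apart either.

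Amino acids cross the plasma membrane through families of carriers with distinct substrates. Among the SLC7 genes followed here, Slc7a1 and Slc7a3 encode cationic amino acid transporters, which carry arginine and lysine on their own. Slc7a5, Slc7a6 and Slc7a7 encode light chains that pair with the heavy chain encoded by Slc3a2 to reach the cell surface. SLC38 proteins take up small neutral amino acids such as glutamine and alanine together with sodium, and Slc1a5 exchanges neutral amino acids, glutamine among them. Several of these genes are known targets of the amino acid response, in which the kinase GCN2 and the transcription factor ATF4 raise uptake and synthesis when amino acids are scarce.

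The arrays were compared first by the targeted gene and by cell type markers. Pou5f1 had signals of 2400 on day 0, 40.8 on day 1 and 15.5 on day 2, so its signal follows the day labels. All 10 ES cell markers were above background on average, which goes with the labelled cell type, and their summed signal was 121490 on day 0, 73306 on day 1 and 25153 on day 2. Of the 10 trophectoderm markers, 9 were above background, and the sum over all 10 was 10798, 16170 and 60425 on the same days. Most of that day 2 sum came from Krt8 (18358) and Krt18 (24610), and 1 of the 9 was lower at day 2 than at day 0. Of the 10 primitive endoderm markers, 8 were above background, and the sum over all 10 was 2926, 5833 and 7893. Most of that day 2 sum came from Col4a1 (4072) and Col4a2 (2245). Of the 8, 3 were lower at day 2 than at day 0, Lama1 among them (709 on day 0 and 186 on day 2). Fibroblast and feeder markers were mostly dim, with 6 of 10 below background and sums over all 10 of 2035, 2391 and 2834. Those above it were Fbln1 (911, 1255 and 1105), Acta2 (460, 619 and 1336), Thy1 (400, 275 and 89.3) and Col1a2 (96.8, 102 and 127). No marker of these lists was at 0. These changes in cell type markers run beside every result that follows, and their part in the transporter values was not tested.

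Signals are linear array intensities, and a difference is the change in log2(signal + 55.9), where 55.9 is the 40th percentile of all signals and serves here as the guide to background. A gene stands for its brightest probe set. The 19 probe sets all had a mean signal above the constant, so no member was lost to the filter on dim probe sets. A change of at least 2-fold was counted, since without replicates size is the only rule available. Probe sets of the same gene differed with a pooled SD of 0.27 for day 2 against day 0 over the 16 probe sets of the 7 genes with several, and of 0.34 over all 5906 genes with several. For day 1 against day 0 these values were 0.38 and 0.30. That spread leaves out the variation between cultures.

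At day 2 the transporters divided into 1 gene with little signal left, 1 that was clearly lower, 1 that was higher and 7 within 2-fold of day 0. Slc7a3 was lower by -4.81 and Slc7a7 by -1.77, while Slc38a4 was higher by 1.10. Thus 2 of 10 members were at least 2-fold lower, where 5.65% of the 12717 genes kept were, and 1 of 10 was at least 2-fold higher, where 5.25% were. The median of the 10 was -0.55, beside 0.05 for all genes. Over all genes 668 were past 2-fold upward and 718 downward. With the ribosomal protein medians set equal across arrays these counts were 502 and 898, and the members past 2-fold were 0 upward and 3 downward, Slc38a2 being the added one.

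At day 1 the members were lower almost throughout. Slc7a3 (-4.14), Slc7a7 (-1.22), Slc7a5 (-1.09) and Slc38a2 (-1.03) made 4 of 10 at least 2-fold lower, beside 2.59% of all genes. As the mean over probe sets there were 3, without Slc38a2 (-0.68). At least 2-fold higher were 0 of 10, beside 2.40%. The members were chosen with earlier results of these data known, which limits what such shares can show at either day. The median was -0.70, against 0.04 for all genes, and Slc38a4 was the 1 member above 0. Equal ribosomal protein medians gave 188 higher and 460 lower genes in all for this comparison, in place of 305 and 330. Day 1 and day 2 were both set against the same day 0 array, so these comparisons are not independent.

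**Figure D1:**
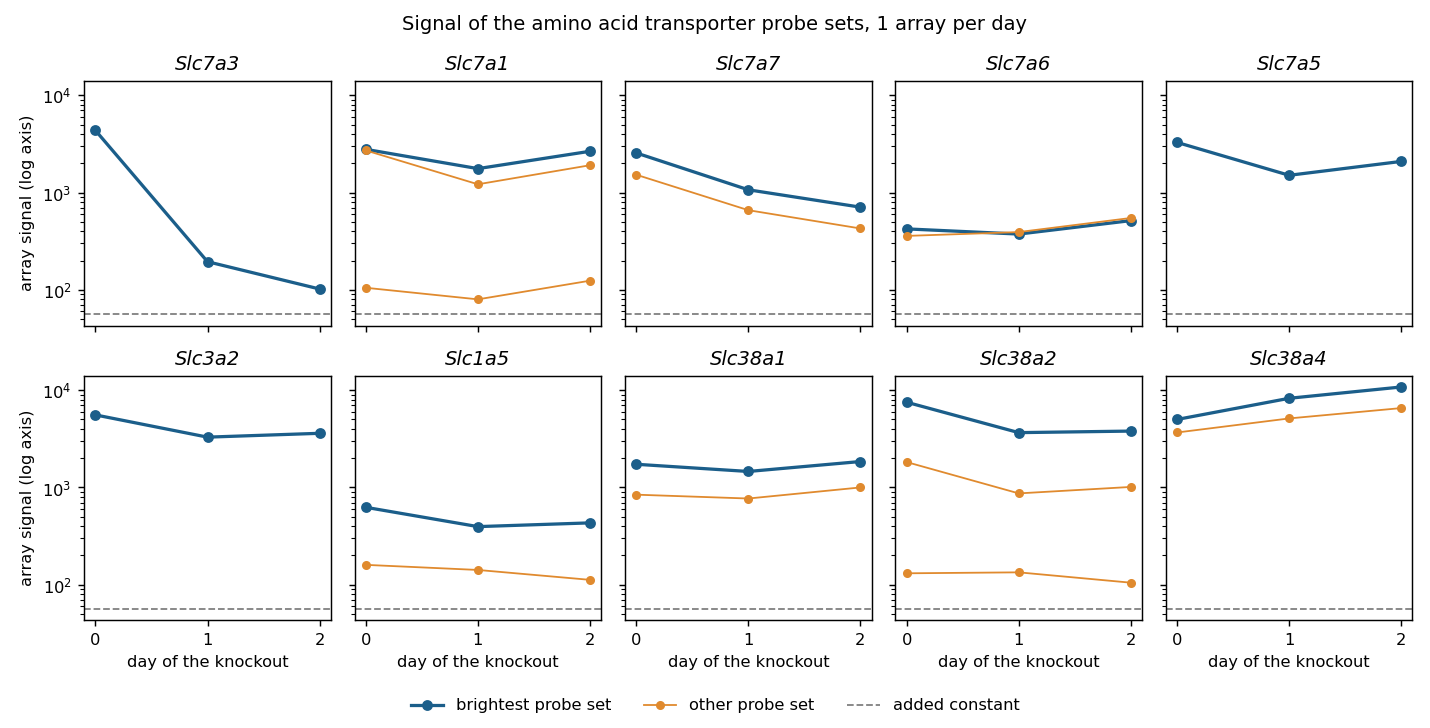
Array signal on a log axis at day 0, day 1 and day 2 for the 19 probe sets of the 10 transporter genes, 1 point per array, with the brightest probe set of each gene in blue, others in orange and the added constant of 55.9 as a dashed line. Slc7a3 lies at 4361, 195 and 102, Slc38a4 at 5004, 8257 and 10793, and levels should be compared within a probe set, not between genes.

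The cationic transporter genes gave the widest contrast of any family here. Slc7a3 encodes a transporter of arginine and lysine. Its single probe set had signals of 4361 on day 0, 195 on day 1 and 102 on day 2. Nearly all of the loss was in place at day 1, when the value was brighter than 63.6% of the array, as compared with 95.9% at day 0, and at day 2 it still exceeded the constant. On the log2 scale 86.1% of the day 2 difference was present at day 1. The fold was 17.6 at day 1 and 28.0 at day 2, each lower than day 0 after the constant was added. Slc7a3 had rank 2 from the lowest of 12717 genes at day 1 and rank 7 at day 2. With a constant of 14.0 its day 2 difference was -5.24, and with one of 112 it was -4.39.

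Slc7a1 encodes the widely expressed transporter of the same substrates, and its mouse protein is also known as the receptor of ecotropic leukaemia viruses. Its brightest probe set had signals of 2786 on day 0, 1765 on day 1 and 2661 on day 2. The day 1 array was the low one, and day 2 was back near day 0. Day 1 was -0.64 relative to day 0 and day 2 was -0.06. The step to day 2, taken against day 1, was 0.58. Another bright probe set read 2715, 1218 and 1912 over the same days, which is -1.12 at day 1 and -0.49 at day 2. A dim further one read 105, 79.9 and 124. All 3 probe sets had their lowest value at day 1, but the sign at day 2 against day 0 differed among them, from -0.49 to 0.16. At day 2 the difference of Slc7a3 was lower than that of Slc7a1 by -4.74 in log2, many times the SD between probe sets.

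By the smallest distance over the day 1 and day 2 differences, the 5 genes nearest to Slc7a3 on these 3 arrays were Pou5f1, Nr0b1, Lefty1, Trh and Jam2, at distances of 0.61 to 1.19 in log2. Pou5f1 is the gene labelled as knocked out and Nr0b1 a nuclear receptor of ES cells. Lefty1 is an inhibitor of Nodal signalling and Trh the precursor of a releasing hormone. The day 2 signals of Pou5f1, Nr0b1, Lefty1 and Trh lay between 15.3 and 16.5, below the constant, while Slc7a3 was at 102 and Jam2, a junctional adhesion molecule, at 113. Pou5f1 was below the constant at day 1 too, at 40.8. The differences of these 4 genes are therefore limited by the constant, and the order of the 5 is unresolved. Slc7a3 had rank 2 from the lowest at day 1 and rank 7 at day 2, where few genes lie. Its neighbours were thus bound to be other genes of that extreme, and distances over 3 arrays carry little information.

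The genes of the heterodimeric transporters moved apart. Slc7a7 encodes the light chain of an exchanger that releases cationic amino acids in return for neutral ones and sodium. Its signals were 2558 on day 0, 1069 on day 1 and 709 on day 2 in the brightest probe set, and 1527, 660 and 428 in the other. Both probe sets were lower on each later day. They gave -1.22 and -1.15 at day 1, and -1.77 and -1.71 at day 2. The fold at day 2 was 3.42, and 68.6% of the log2 difference was present at day 1. Slc7a7 and Slc7a3 were the members that were lower at both steps, with -0.56 and -0.67 for day 2 against day 1.

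Slc7a6 encodes the closely related light chain of the same kind of exchanger. It had signals of 424 on day 0, 375 on day 1 and 515 on day 2, and its other probe set had 359, 393 and 549. Day 2 was the highest array in both, while their day 1 values fell on either side of day 0. The differences at day 2 were 0.25 and 0.54, both within 2-fold. The difference of Slc7a7 at day 2 was lower than that of Slc7a6 by -2.03 in log2.

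Slc7a5 encodes the light chain of the main carrier of large neutral amino acids such as leucine. Its single probe set had signals of 3282 on day 0, 1507 on day 1 and 2093 on day 2. Slc3a2, the gene of the shared heavy chain, had 5571, 3291 and 3604 in its single probe set. Both genes were lowest at day 1 and stood between that value and day 0 at day 2. Slc7a5 gave -1.09 at day 1 and -0.64 at day 2, and Slc3a2 gave -0.75 and -0.62. The light and heavy chain genes differed from each other by -0.35 at day 1 and by -0.01 at day 2 in log2. The first was about as large as the SD between probe sets of 1 gene. For that comparison the SD was 0.30 over all genes and 0.38 over the members. Slc3a2 serves Slc7a5, Slc7a6 and Slc7a7 alike, and its day 2 difference was closest to that of Slc7a5.

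For the heterodimeric light chains, the sequence before the gene start is shown for Slc7a7. Some of its windows were the only ones among those searched to hold a motif. RefSeq promoter windows (250 bases before to 50 after a gene start, build GRCm38.p6) were matched by symbol for 6 of the 10 genes, Slc7a1, Slc7a6, Slc7a7, Slc3a2, Slc38a2 and Slc38a4, with 14 windows in all. The motifs were the octamer ATGCAAAT, which Oct factors bind, and the core of the ATF4 response element TGATGNAA, both searched on either strand. The motifs share the letters ATGCAA, so a run of both counts for each. The octamer was found in 0 of the 14 windows and in 1.74% of all 32851 promoter windows. The response element core was found in 2 of the 14, and in 3.97% of all windows. Both were Slc7a7 windows, which overlap and share 1 match, and the further windows of Slc7a7 held neither motif. Members without a window were not searched. In the window at chr14:54417895-54418194, minus strand, matches in capitals start 141 bases and 1 base before the gene start. A match of letters is a description and shows no binding.
Slc7a7: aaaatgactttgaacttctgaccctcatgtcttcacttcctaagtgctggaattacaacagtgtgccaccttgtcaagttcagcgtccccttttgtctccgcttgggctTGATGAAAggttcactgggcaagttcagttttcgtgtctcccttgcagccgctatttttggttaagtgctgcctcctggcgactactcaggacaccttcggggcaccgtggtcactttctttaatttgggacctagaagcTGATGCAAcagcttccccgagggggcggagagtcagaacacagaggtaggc

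Slc1a5 was modestly lower. Its brighter probe set had signals of 625 on day 0, 396 on day 1 and 432 on day 2, and the dimmer one had 160, 142 and 112. The later arrays were below day 0 in both, but the order of day 1 and day 2 differed between the probe sets. The differences at day 2 were -0.48 and -0.36, and those at day 1 were -0.59 and -0.13. All of these lie within 2-fold.

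**Figure D2:**
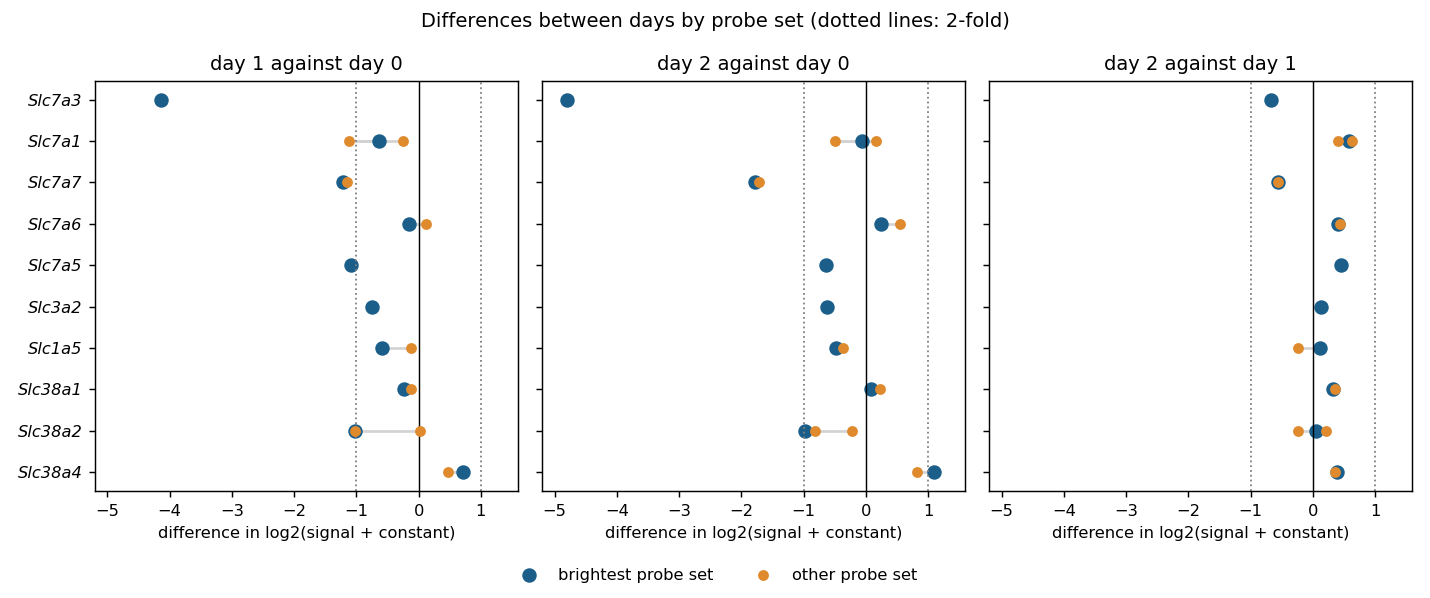
Differences in log2(signal + 55.9) between days for each transporter gene, with the brightest probe set in blue, others in orange and dotted lines at 2-fold. Slc7a3 stands far to the left at -4.14 and -4.81 against day 0, and against day 1 the day 2 values of all 10 brightest probe sets lie between -0.67 and 0.58.

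The 3 sodium-coupled transporter genes of the SLC38 family behaved in 3 ways, although they lie next to each other on chromosome 15. In the RefSeq gene table no other protein-coding gene stands between them. Slc38a2 encodes a transporter of small neutral amino acids that is known to be induced when amino acids are scarce. Its brightest probe set had signals of 7521 on day 0, 3662 on day 1 and 3798 on day 2, and another 1823, 869 and 1012. The later arrays were close to each other and well below day 0. The differences were -1.03 and -1.02 at day 1, and -0.98 and -0.82 at day 2. Slc38a2 was therefore just outside the 2-fold rule at day 2, and was inside it at -1.14 with equal ribosomal protein medians. A further, dim probe set read 131, 134 and 105, a difference of 0.02 at day 1 and -0.22 at day 2. The mean over the 3 probe sets was -0.68 at day 1 and -0.67 at day 2.

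Slc38a1, which encodes a carrier of glutamine and related amino acids, stayed near its starting level. It had signals of 1731 on day 0, 1460 on day 1 and 1847 on day 2, and its other probe set had 843, 770 and 1000. Day 1 was the lowest array in both. The differences at day 2 were 0.09 and 0.23, and the value of the brighter probe set turned to -0.07 with equal ribosomal protein medians.

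Slc38a4, an imprinted gene of the mouse that is strongly expressed in placenta and liver, was the 1 member that was higher at both steps. Its signals were 5004 on day 0, 8257 on day 1 and 10793 on day 2, and those of its other probe set were 3674, 5125 and 6549. Each later array was higher than the one before in both probe sets. At day 1 the differences were 0.72 and 0.47, and at day 2 they were 1.10 and 0.82. The fold of the brighter probe set at day 2 was 2.14, just inside the 2-fold rule, and it was under 2-fold with equal ribosomal protein medians (0.94) or as the mean of both probe sets (0.96). The day 2 difference of Slc38a4 exceeded that of Slc38a2 by 2.08 and that of Slc38a1 by 1.01 in log2. The next protein-coding gene beyond Slc38a4, Amigo2, was dim, with signals of 71.0, 89.2 and 93.2.

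The genes nearest to Slc38a4 over the day 1 and day 2 differences were Chst12, Il9, Klhl25, Arid5a and Neurl1b, at distances of 0.01 to 0.05 in log2. Their day 2 differences ran from 1.08 to 1.12. Il9 had a day 0 signal of only 16.5, below the constant. Many genes share a change of this moderate size, and distances over 3 arrays carry little information.

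Promoter windows of these chromosome 15 neighbours are shown because Slc38a2 was lower and Slc38a4 higher on the same arrays. The Slc38a2 window (chr15:96699679-96699978, minus strand) is 73.0% G and C, and the furthest upstream of the 3 Slc38a4 windows (chr15:97055907-97056206, minus strand) is 53.0%, where the median of all windows was 52.7%. Neither holds the octamer or the response element core, so nothing is in capitals.
Slc38a2: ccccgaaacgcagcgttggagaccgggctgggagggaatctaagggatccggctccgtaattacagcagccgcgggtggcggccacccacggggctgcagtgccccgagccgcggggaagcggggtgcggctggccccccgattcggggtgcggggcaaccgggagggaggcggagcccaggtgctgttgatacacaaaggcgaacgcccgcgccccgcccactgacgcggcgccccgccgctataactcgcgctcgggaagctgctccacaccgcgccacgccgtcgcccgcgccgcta
Slc38a4: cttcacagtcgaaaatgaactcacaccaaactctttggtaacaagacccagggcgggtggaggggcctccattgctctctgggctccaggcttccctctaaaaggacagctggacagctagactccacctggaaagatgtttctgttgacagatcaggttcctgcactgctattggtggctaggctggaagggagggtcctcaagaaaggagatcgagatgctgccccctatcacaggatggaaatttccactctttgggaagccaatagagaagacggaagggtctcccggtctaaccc

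The order of the days differed from gene to gene in a way the day 0 comparisons alone do not show. For 7 of the 10 genes, Slc7a1, Slc7a5, Slc7a6, Slc3a2, Slc1a5, Slc38a1 and Slc38a2, day 1 was the low array, lower than day 0 and lower than day 2. Of all genes 23.4% had that order, as did 11 of the 19 member probe sets. Slc7a3 and Slc7a7 were lower at both steps, an order found in 21.4% of all genes, and Slc38a4 was higher at both, as were 26.9%. This grouping was chosen after the values were seen, most steps in it are small, and both steps rest on the same day 1 array. For day 2 against day 1, 0 of 10 members were at least 2-fold higher (2.09% of all genes) and 0 of 10 at least 2-fold lower (2.65%). The highest were Slc7a1 at 0.58 and Slc7a5 at 0.46.

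**Figure D3:**
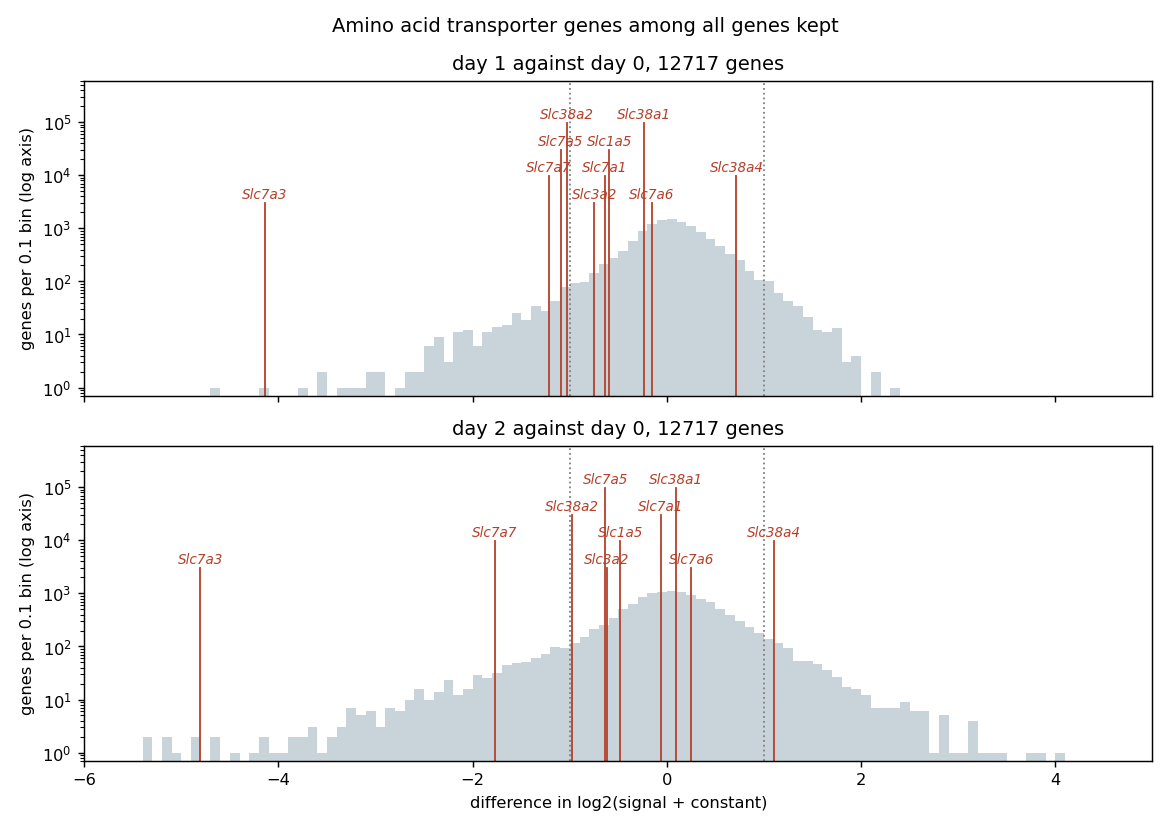
Histograms of the differences of all 12717 genes kept, for day 1 (top) and day 2 (bottom) against day 0, with gene counts on a log axis, red lines at the transporter genes and dotted lines at 2-fold. Slc7a3 lies at the low end in both, Slc38a4 is the member furthest to the right, and the others lie between -1.77 and 0.25.

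The other amino acid transporters listed for comparison, a chosen set, were mostly dim in these cells and mostly within 2-fold. Of 45 further transporter genes 43 had a probe set of their own, and 31 were above background on average. At day 2, 2 of the 31 were past 2-fold upward and 3 downward, with a median of 0.14. For all genes the shares were 5.25% upward and 5.65% downward, with a median of 0.05. Slc6a15, a neutral amino acid transporter of neurons, was lower by -1.76 (signals 415, 129 and 83.4 at day 0, day 1 and day 2), and the glutamate transporter gene Slc1a3 by -1.49 (190, 38.8 and 31.8), with both later signals below the constant, which limits that difference. Slc1a1, another glutamate transporter gene, was lower by -1.16, with probe sets between -1.16 and -0.04. Slc6a14, a broad transporter of neutral and cationic amino acids, was higher by 1.26 (23.4, 84.4 and 133), and Slc36a4, of the proton-assisted family, by 1.23 (38.1, 101 and 165). Both started below the constant and both were under 2-fold with a constant of 112. Slc7a2, another cationic amino acid transporter gene that is named here outside the rule for named genes, had dim signals of 58.1, 130 and 87.5.

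Genes of the amino acid response differed in both directions. Of 19 measured genes 14 were below 0 at day 2, with a median of -0.53. Of all 12717 genes 5842 were below 0, with a median of 0.05. Past 2-fold were 3 downward and 1 upward, beside 5.65% and 5.25% of all genes. Chac1, which degrades glutathione, was lower by -2.54 (signals 1059, 420 and 136 over day 0, day 1 and day 2). Nupr1, a stress-induced nuclear protein gene, was lower by -1.82, and Asns, the gene of asparagine synthetase, by -1.06. Cebpb, a transcription factor that also acts outside this response, was higher by 2.34 (617, 1294 and 3348). Atf4 itself, named here outside the rule for named genes, had signals of 8179, 4780 and 5039, a difference of -0.77 at day 1 and -0.69 at day 2, and its other probe set gave -1.04 at day 2. In the brighter probe set day 1 and day 2 were close to each other.

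Genes that act on amino acids inside the cell changed in a few places at day 2, when 5.65% of all genes were at least 2-fold lower. A further 5.25% were at least 2-fold higher. Among 12 glutamine and glutamate enzymes 3 were past 2-fold downward and 0 upward, with a median of -0.03. Glul, the gene of glutamine synthetase, was lower by -2.29 (signals 5276, 1539 and 1034), Gpt2, an alanine aminotransferase gene, by -1.32, and Glud1, the gene of glutamate dehydrogenase, by -1.08. Gfpt1, of the hexosamine pathway, was at 0.45. Of 12 arginine and polyamine enzymes 1 was at least 2-fold lower, the nitric oxide synthase gene Nos3 (-1.26), and 0 higher. Arg2 (0.76), Gatm (0.64) and Asl (0.51) stayed within 2-fold, and the median was -0.23.

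Sensors and users of amino acids mostly stayed within 2-fold at day 2. The shares of all genes were 5.65% at least 2-fold lower and 5.25% at least 2-fold higher. Of 32 genes of amino acid sensing upstream of the growth kinase complex mTORC1, 0 were at least 2-fold lower and 2 at least 2-fold higher: Castor2 (1.27), related to the arginine sensor, and Rragd (1.20), a Rag GTPase gene. The lowest probe sets of these genes gave 0.70 and 0.67, and as the mean over probe sets 0 of the sensing genes were at least 2-fold higher. Tsc1 was at 0.86, with probe sets from 0.04, and Depdc5 at 0.71, with probe sets from -0.66. The median of the list was 0.08. Of 19 cytosolic aminoacyl-tRNA synthetases 0 passed 2-fold in either direction by their brightest probe set, though the lowest probe set of Cars gave -1.19. The lowest were Vars (-0.60), Cars (-0.54), Nars (-0.51) and Tars (-0.44), and the median was -0.21.

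**Figure D4:**
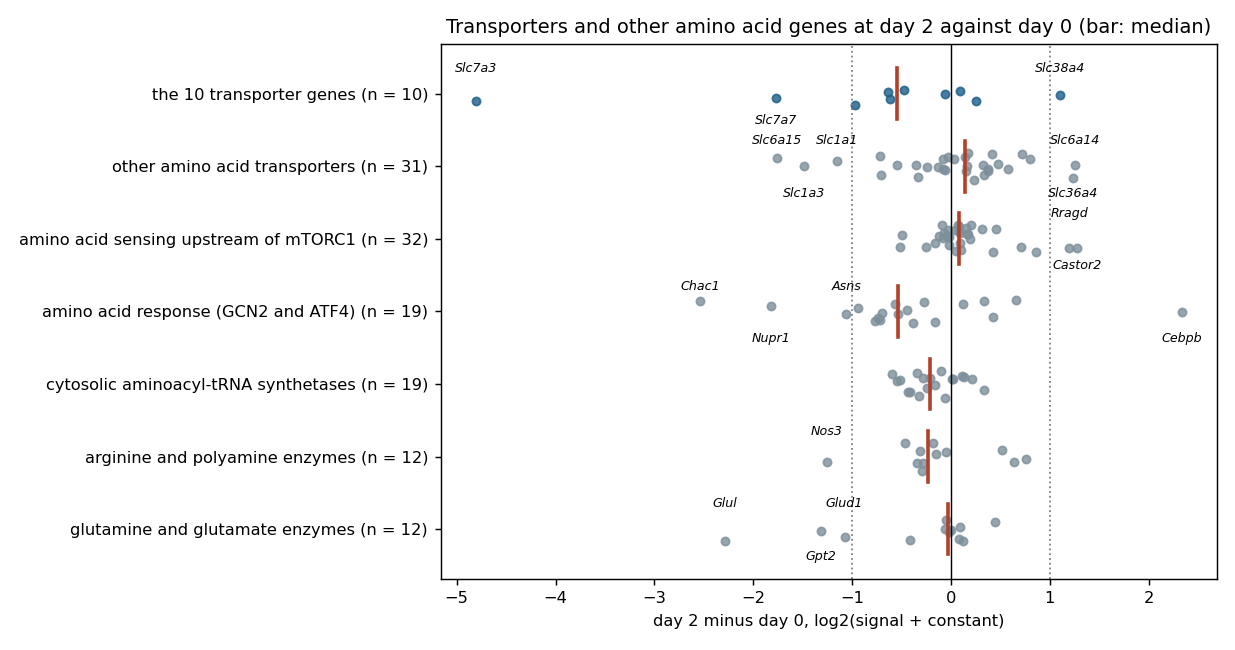
Day 2 minus day 0 differences in log2(signal + 55.9) of the 10 transporter genes and of 6 lists of other amino acid genes, 1 point per gene, with a red bar at each median, dotted lines at 2-fold and names for genes past it. Medians are -0.55 for the 10 transporters and -0.53 for the amino acid response, and lie between -0.23 and 0.14 for the others.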

How the data were processed

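Total RNA of 3 samples, 1 per day, was measured on Affymetrix arrays. The authors deposited intensities on a linear scale, 1 per probe set. They name MAS5, per the submitters' processing notes, without a version. The arrays shared a 2% trimmed mean (498 on each) without the 64 control probe sets, which only the day 2 column holds. These were left out. No source used here says whether that array was exported separately.

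Each array was scaled to the common trimmed mean. The constant of 55.9 was added before log2, and 26925 of 45037 probe sets (59.8%) with a mean signal at or over it were kept. Probe sets naming 1 gene in the platform annotation numbered 34945, of which 34741 matched the RefSeq table by Entrez identifier. Another 932 named several genes and 9160 were not listed. A gene is its brightest kept probe set, which left 12717 genes.

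No test was possible with 1 array per day. The number of arrays limits the precision. The code was tested on simulated data. Members, lists and rules were chosen with earlier results of these data known. All members were named, with Pou5f1, up to 4 members of each other list with the largest day 2 difference and any further ones past 2-fold, and the 5 genes nearest to the lowest and to the highest member. Atf4, Slc7a2 and Amigo2 in the results, and Slc1a4 and Slc6a6 in the closing observations, were named outside this rule after their values were seen. List genes without a probe set of their own were not analysed here. The 8 alternatives changed the constant, the filter, the scaling or the choice of probe set. Python 3.11.15, pandas 2.3.3 and scipy 1.17.1 were used.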

Additional observations from a re-analysis of the deposited data

How the results depend on the processing

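Of 234 recomputed values of the members over 8 alternatives, 4 crossed the 2-fold line, all of Slc38a2 or Slc38a4, and 2 changed sign, those of Slc38a1 with equal ribosomal protein medians (-0.07 at day 2 against day 0) and of Slc1a5 as the mean of its probe sets (-0.06 for day 2 against day 1). With equal ribosomal protein medians the median of all genes was -0.10 at day 2 and -0.11 at day 1 against day 0, beside 0.05 and 0.04, the median of the members was -0.71 and -0.87, and at day 2 there were 0 members past 2-fold upward and 3 downward. As the mean over probe sets, 0 members and 0 of the amino acid sensing genes were at least 2-fold higher at day 2. When probe sets with the endings _x_at, _s_at and _a_at were dropped, Slc7a7 and Slc3a2 had no value, 1 member was at least 2-fold lower at day 2, and the day 2 medians were -0.27 against day 0 and 0.37 against day 1, with fewer genes counted. With a constant of 112, or a filter set at the 60th percentile, 0 other transporters were at least 2-fold higher at day 2, and with a constant of 14.0 there was 1 such arginine and polyamine enzyme. Over all genes at day 1 against day 0, 599 were at least 2-fold higher with a constant of 14.0, 146 with one of 112 and 188 with equal ribosomal protein medians, in place of 305. For day 2 against day 1 there were 454 higher and 615 lower with a constant of 14.0, and 157 and 184 with one of 112, in place of 266 and 337. No paired analysis was possible because each day has 1 array. Small differences cannot be told from variation between cultures or hybridisations, which these arrays do not measure.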

Other observations

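Slc1a4, which encodes a neutral amino acid exchanger related to Slc1a5, stayed within 2-fold by its brightest probe set, but its 3 kept probe sets differed by 1.98 in log2 at day 2 against day 0. The brightest read 256 on day 0, 249 on day 1 and 158 on day 2 (-0.55 at day 2). The others read 304, 114 and 134 (-0.93), and 307, 180 and 7.20 (-2.53). All 3 were lower at day 2 than at day 0, with the size of the difference unresolved. It was singled out after its values were seen, as the gene with the widest spread between probe sets among the other transporters.

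Slc6a6, the gene of the taurine transporter, had bright probe sets at 0.17 and 0.27 at day 2 against day 0, and dim ones at -0.77 and -0.24, so its sign depends on the probe set. The values were also chosen after they were seen.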
